A study of Homo sapiens with 6 samples.

Results

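The genes examined here carry copper into human cells, hand it on inside them and pump it out. They are the 10 genes *SLC31A1*, *SLC31A2*, *ATP7A*, *ATP7B*, *COMMD1*, *ATOX1*, *CCS*, *COX17*, *SCO1* and *SCO2*, chosen by name and function and found by their Ensembl identifiers among the 60609 genes of each deposited table. All 10 had enough counts to be tested, with 1225 to 23348 fragments per gene and library. The cells were OCI-AML5, an established human acute myeloid leukemia line grown with serum and the cytokine GM-CSF. Both groups came from the same line and medium and were exposed for 24 hours, to DMSO, the solvent, in 3 libraries and to 1 μM S767 in the other 3. S767 is a small molecule that the study selected for its activity on leukemia specimens, and the transcriptome of exposed cells was profiled to learn how it acts. One dose, one time and one line were measured, so no dose or time course can be read from these data.

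Copper is needed as a cofactor by cytochrome oxidase, by superoxide dismutase and by enzymes of the secretory pathway, and it is toxic when free. SLC31A1 imports copper(I) through the plasma membrane, small chaperones carry it to defined partners, and the ATPases ATP7A and ATP7B load it into the Golgi or move to the cell surface and vesicles to expel it. Much of this system is known to be controlled by the movement and turnover of the proteins, which mRNA sequencing does not measure.

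None of the 10 copper genes passed an adjusted p of 0.05 between S767 and DMSO. The differences were small, from a log2 fold change of -0.07 for *SCO2* to 0.15 for *COMMD1*, with 5 genes above 0 and 5 below it. *COMMD1*, which helps copper pumps reach their place in the cell, had the one P value under 0.05, and its S767 mean was 15.7 against 14.1 CPM (counts scaled to the library size). The importer *SLC31A1* and the exporter *ATP7A* differed from DMSO by -0.01 and -0.02 on the log2 scale.

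The comparison used edgeR's quasi-likelihood test on the reverse-strand fragment counts, with adjusted p-values by the method of Benjamini and Hochberg across 20725 tested genes. The adjusted p of each copper gene was 1.00. Against the 0 copper genes called stands a background of 0.00483% of all genes tested, which is 1 gene. DESeq2 and limma-voom also called 0 of the 10, where they called 25 and 1 of all 20725 genes. A P value under 0.05 was reached by 3.53% of all genes and by 1 of the 10 copper genes. The median log2 fold change was -0.0039 over the copper genes and -0.00024 over all genes. CPM groups did not overlap for 0 of the 10 copper genes and for 9.21% of all genes, 5.12% with S767 higher and 4.08% with S767 lower. The 95% intervals of the 10 genes lay between -0.29 and 0.30 on the log2 scale, which are folds of 0.821 and 1.23. Fewer cells with a transcript and less transcript per cell cannot be told apart in such bulk libraries, and the labels do not say whether the replicates were separate cultures, so P values measure the spread between these libraries.

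Libraries with the same replicate number deviated together, and a second fit therefore took that number as a block. It gave 0 of 10 copper genes past an adjusted p of 0.05, where 3.23% of all genes passed. *COMMD1* and *CCS* were higher and *SCO2* was lower at a P value under 0.05 in that fit, which 16.8% of all genes reached. The lowest adjusted p of the 10, in edgeR's quasi-likelihood test with the block, was 0.121 for *COMMD1*.

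**Figure D1:**
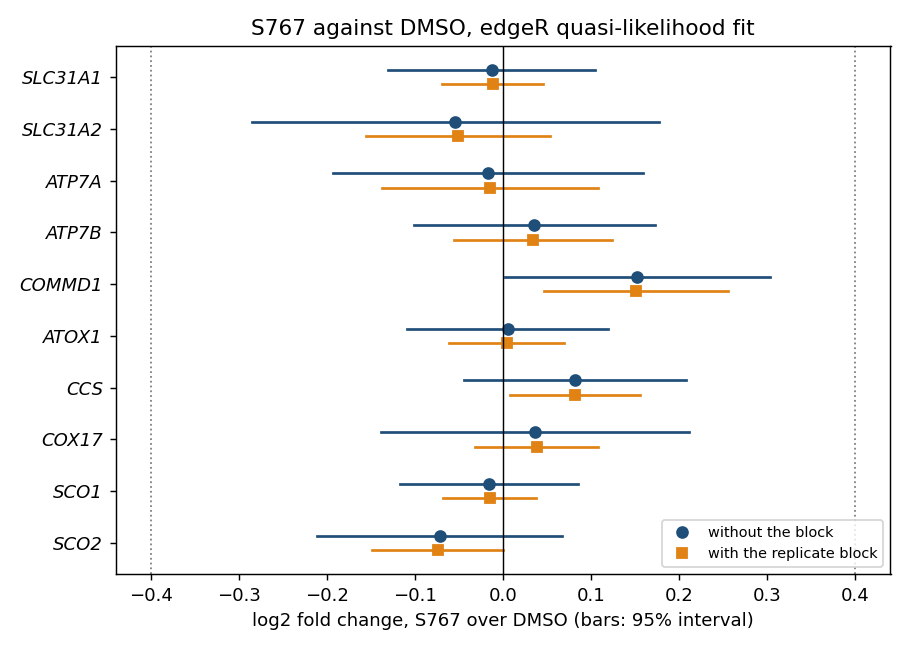
Log2 fold change of S767 over DMSO (horizontal axis) for the 10 copper genes, with 95% intervals from the edgeR fit without the replicate block (circles) and with it (squares); dotted lines mark a log2 fold change of 0.4 in either direction. Every interval lies inside the dotted lines, and without the block the interval of *COMMD1* alone stays above 0.

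Gene counts totalled 149994700 to 258029564 per library. Counting error of a copper gene was at most 2.86% of its value, for *SLC31A2*, beside an SD between DMSO libraries of 12.1%. It was closest to the spread for *ATP7B*, at 1.78% to 2.37% beside SDs of 3.23% in DMSO and 2.31% with S767. The labelled cell type was checked with marker genes. Of 12 myeloid leukemia markers 11 were above 1 TPM (a level per transcript length) on average over the 6 libraries, and their summed level was 800 to 1201 TPM in DMSO and 793 to 1207 TPM with S767. T and B cell markers summed to 6.82 to 11.4 TPM in DMSO and 6.91 to 11.4 TPM with S767, with *CD3E* at 0 in every library. Of these 5 markers 1 was above 1 TPM on average, the B cell marker *CD79A* at 6.63 to 11.2 TPM, which made up most of the sum. Erythroid and megakaryocyte markers reached at most 0.03 TPM, and epithelial and stromal markers at most 0.43 TPM.

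On the TPM scale, *ATOX1* and *COX17* were highest and the ATPases lowest, with the chaperone *CCS* in the middle. The cytosolic chaperone *ATOX1* led with 98.7 ± 5.63 TPM in DMSO (SD, n = 3), followed by the mitochondrial chaperone *COX17* with 69.2 ± 7.42 and *SCO2* with 48.6 ± 1.60 TPM. *SCO1* with 32.1 ± 0.960 and *COMMD1* with 30.6 ± 1.32 TPM were neighbours whose DMSO libraries overlapped. *CCS* had 25.4 ± 1.55, *SLC31A1* 17.1 ± 0.802 and *SLC31A2* 6.61 ± 0.852 TPM. The exporters were lowest, *ATP7B* with 2.51 ± 0.142 and *ATP7A* with 1.36 ± 0.0458 TPM. All other neighbours in this order had separate DMSO libraries. With S767, *COMMD1* at 33.5 ± 1.66 TPM stood above *SCO1* at 31.0 ± 0.194 TPM, and the rest of the order was as in DMSO. Among the levels of all tested genes, *ATOX1* stood at percentile 93.1 and *ATP7A* at percentile 41.6.

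**Figure D2:**
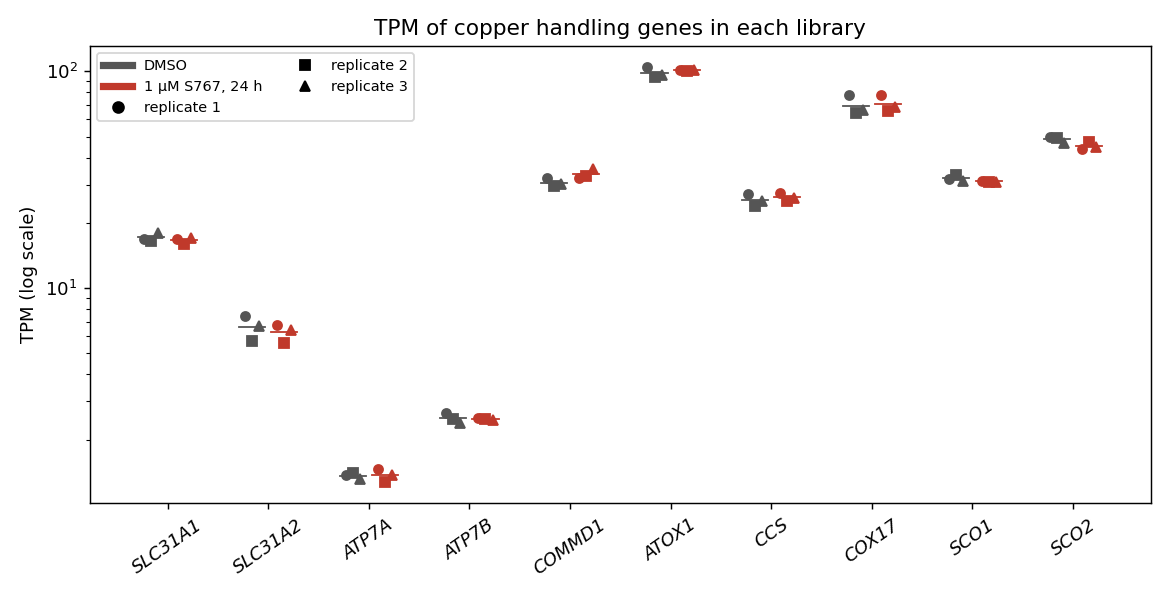
TPM (vertical axis, log scale) of each copper gene in the 3 DMSO and 3 S767 libraries, with marker shapes for replicate numbers and short lines for group means. Levels range from *ATP7A* near 1.36 TPM to *ATOX1* near 98.7 TPM, and the groups lie beside each other for each gene.

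Uptake was read from *SLC31A1* and *SLC31A2*. *SLC31A1* (ENSG00000136868.11, chr9:113221562-113264492, plus strand) encodes CTR1, the high-affinity importer of the plasma membrane. Its DMSO libraries held 57.1, 57.1 and 63.3 CPM and its S767 libraries 57.8, 57.6 and 60.5 CPM. The third library was the highest of each group, and the groups overlapped. The log2 fold change of *SLC31A1* was -0.01 with a standard error (SE) of 0.05 and a 95% interval from -0.13 to 0.10, which are folds of 0.914 and 1.08. *SLC31A2* (ENSG00000136867.11, chr9:113150942-113164137, plus strand) lies beside it on chromosome 9 and encodes CTR2, a related protein found mostly on internal membranes. It had 10.5, 8.24 and 9.12 CPM in DMSO and 9.47, 8.22 and 9.12 CPM with S767. Its first pair differed by -0.14 on the log2 scale and the other pairs by -0.0046 and 0.00092, while the fitted difference was -0.05 (SE 0.10, 95% interval -0.29 to 0.18). This was the widest interval of the 10 genes, and *SLC31A2* held the lowest count of any library, 1225 fragments.

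The window before the transcription start of *SLC31A1* is shown because this gene encodes the copper importer of the plasma membrane. Those of *COMMD1* and *CCS* are shown because they had the largest upward differences. Of 3 *COMMD1* windows, the one printed ends at the start of the gene in GENCODE 29. The *CCS* window lies inside the gene as GENCODE 29 places it, with a start at 66592821. Its motif positions are therefore counted from a RefSeq start further downstream. The sequences are the 250 bases upstream of a RefSeq start on GRCh38.p14, 5′ to 3′ on the strand of the gene, and capitals mark the motifs GGGCGG (the GC box bound by SP1-type factors) and TGCGCNC (a form of the core metal response element bound by MTF1), searched on both strands.
SLC31A1, chr9:113221294-113221543, plus strand: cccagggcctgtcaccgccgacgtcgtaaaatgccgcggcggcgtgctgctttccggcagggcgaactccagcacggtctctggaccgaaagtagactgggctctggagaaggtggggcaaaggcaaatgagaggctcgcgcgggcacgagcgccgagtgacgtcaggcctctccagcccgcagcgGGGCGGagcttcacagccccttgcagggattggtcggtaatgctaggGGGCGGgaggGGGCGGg
COMMD1, chr2:61888475-61888724, plus strand: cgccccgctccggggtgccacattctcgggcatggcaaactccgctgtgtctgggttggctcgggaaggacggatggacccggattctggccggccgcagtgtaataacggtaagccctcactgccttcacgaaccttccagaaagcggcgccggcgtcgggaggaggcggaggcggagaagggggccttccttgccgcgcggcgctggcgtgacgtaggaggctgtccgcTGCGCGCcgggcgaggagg
CCS, chr11:66592935-66593184, plus strand: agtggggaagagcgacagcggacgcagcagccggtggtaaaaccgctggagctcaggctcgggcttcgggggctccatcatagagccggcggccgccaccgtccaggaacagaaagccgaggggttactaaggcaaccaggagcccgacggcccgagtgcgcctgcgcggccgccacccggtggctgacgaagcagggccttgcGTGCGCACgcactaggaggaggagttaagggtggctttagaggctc
*SLC31A1* had 3 GC boxes, at -64 to -59, -17 to -12 and -7 to -2 from the start. *COMMD1* had TGCGCNC at -19 to -13 in the window printed, and its other windows held TGCGCNC at -62 to -56 and GGGCGG at -15 to -10. *CCS* had it on both strands at -46 to -40 and -45 to -39, which overlap because the letters there are their own reverse complement. RefSeq windows matched 8 of the 10 genes, with 13 windows in all, some of which overlap. *SLC31A2* and *SCO2* had no entry in the table. TGCGCNC occurred in 7 of the 13 windows, from *ATOX1*, *ATP7B*, *CCS*, *COMMD1* and *COX17*, and in 16.8% of the 35116 windows of all genes. The sister form TGCACNC occurred in 0 of the 13 and in 9.87% of all windows. GGGCGG occurred in 7 of the 13 and in 42.6% of all windows. These matches describe letters in the windows and say nothing about binding.

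Efflux was read from the ATPases and *COMMD1*. *ATP7A* (ENSG00000165240.20, chrX:77910656-78050395, plus strand) encodes the pump that is defective in Menkes disease. It had 8.11, 8.73 and 8.22 CPM in DMSO and 8.83, 7.78 and 8.14 CPM with S767. The S767 library was higher in the first pair and lower in the second, so the groups overlapped widely. The difference was -0.02 (SE 0.08, 95% interval -0.19 to 0.16). *ATP7B* (ENSG00000123191.14, chr13:51930436-52012125, minus strand) encodes the pump that is defective in Wilson disease. It had 12.8, 12.0 and 12.2 CPM in DMSO and 12.6, 12.9 and 12.4 CPM with S767, and its difference was 0.04 (SE 0.06, 95% interval -0.10 to 0.17). The *ATP7A* means lay apart by less than the SD of either group. The *ATP7B* means, 12.3 CPM in DMSO and 12.6 CPM with S767, lay apart by less than the DMSO SD of 0.398 CPM. That distance was slightly more than the S767 SD of 0.291 CPM, and the groups overlapped.

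*COMMD1* (ENSG00000173163.10, chr2:61888724-62147247, plus strand) encodes a partner of the ATPases that takes part in sorting membrane proteins at endosomes, and its loss causes copper storage disease in dogs. The DMSO libraries held 14.8, 14.1 and 13.6 CPM and the S767 libraries 14.7, 16.2 and 16.3 CPM. The first S767 library lay at the DMSO level and the other 2 were above every DMSO library. The first pair differed by -0.0041 on the log2 scale, the second by 0.20 and the third by 0.26. The fitted difference was 0.15 (SE 0.07, 95% interval 0.0018 to 0.30), with an adjusted p of 1.00 in edgeR's quasi-likelihood test. With the replicate block it was 0.15 (SE 0.05) at an adjusted p of 0.121. Without the first pair, the fit with the block gave *COMMD1* a difference of 0.23 (SE 0.04) at an adjusted p of 0.000149, and that is the one setting tried in which a copper gene passed the adjusted threshold; in it 2034 of 20629 genes passed. Without the third pair it was 0.09 at an adjusted p of 0.451. In TPM, *COMMD1* had 32.1, 29.6 and 30.1 in DMSO and 32.4, 32.7 and 35.4 with S767, groups that do not overlap, as for 3.31% of all genes in this direction. The count and TPM values thus place its first S767 library on different sides of the highest DMSO library. The exons of *COMMD1* share 741 of 2392 bases with *RPSAP26*, a ribosomal protein pseudogene on the same strand that was listed at 0 in every library, and how reads of that stretch were handled was not tested. The posterior SD that RSEM gave was at most 0.293% of its *COMMD1* estimate.

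**Figure D3:**
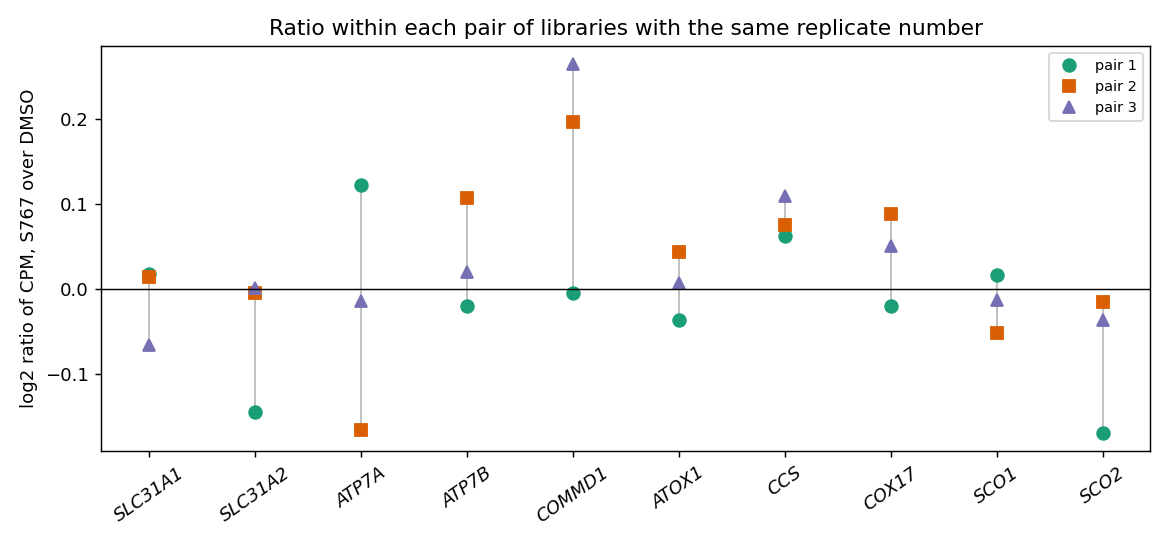
Log2 ratio of CPM, S767 over DMSO (vertical axis), within each of the 3 pairs of libraries that share a replicate number, for each copper gene. *CCS* is above 0 in all 3 pairs and *SCO2* below 0 in all 3, while *COMMD1* is near 0 in pair 1 and at 0.20 and 0.26 in the others.

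The cytosolic chaperones are *ATOX1*, which hands copper to the ATPases, and *CCS*, which loads superoxide dismutase 1. *ATOX1* (ENSG00000177556.12, chr5:151742316-151772532, minus strand) had 27.1, 27.1 and 25.8 CPM in DMSO and 26.4, 27.9 and 25.9 CPM with S767. Its group means were both 26.7 CPM and its difference was 0.0050 (SE 0.05, 95% interval -0.11 to 0.12). *CCS* (ENSG00000173992.9, chr11:66592821-66606019, plus strand) had 17.5, 16.4 and 16.5 CPM in DMSO and 18.3, 17.3 and 17.8 CPM with S767. Each S767 library of *CCS* was above the DMSO library of its number, by 0.06, 0.08 and 0.11 on the log2 scale, but the lowest S767 library lay below the highest DMSO library. Its difference was 0.08 (SE 0.06, 95% interval -0.04 to 0.21) without the block and 0.08 (SE 0.03, 95% interval 0.0084 to 0.16, adjusted p = 0.239) with it, in edgeR's quasi-likelihood test. All 3 pairs were higher for 19.9% of all genes tested, and all 3 went one way for 37.8%.

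The mitochondrial members pass copper to cytochrome oxidase. COX17 collects it in the intermembrane space and gives it to SCO1 and SCO2, which fill the copper site of subunit MT-CO2. *COX17* (ENSG00000138495.6, chr3:119654513-119677454, minus strand) had 25.9, 21.6 and 22.5 CPM in DMSO and 25.5, 23.0 and 23.3 CPM with S767. The first library was the highest of each group, and the difference was 0.04 (SE 0.08, 95% interval -0.14 to 0.21). *SCO1* (ENSG00000133028.12, chr17:10672474-10698375, minus strand) had 84.3, 91.9 and 90.3 CPM in DMSO and 85.3, 88.7 and 89.5 CPM with S767. Its difference was -0.02 (SE 0.04, 95% interval -0.12 to 0.08), the narrowest interval of the 10 genes. In TPM, the S767 libraries of *SCO1*, at 31.26, 30.91 and 30.94, lay just below the lowest DMSO library at 31.33, as for 4.55% of all genes in this direction, but the CPM groups overlapped.

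*SCO2* (ENSG00000284194.2, chr22:50523568-50526439, minus strand) had 30.0, 30.9 and 28.6 CPM in DMSO and 26.7, 30.5 and 27.9 CPM with S767. Each S767 library was below the DMSO library of its number, by -0.17, -0.02 and -0.04 on the log2 scale, and the groups overlapped. All 3 pairs were lower for 17.8% of all genes tested. The difference of *SCO2* was -0.07 (SE 0.06, 95% interval -0.21 to 0.07) without the block and -0.07 (SE 0.03, 95% interval -0.15 to -0.00037, adjusted p = 0.296) with it, in edgeR's quasi-likelihood test. Its direction turned to 0.14 when fragments were counted without regard to strand, a count that kept 2.59% of its fragments. The same counts left *SLC31A2* with 4.27% and *SCO1* with 90.6% of their reverse-strand fragments, and the other 7 genes with 99.9% to 101%. The exons of *SLC31A2* share 1579 of 2504 bases with *FKBP15* on the opposite strand. Those of *SCO2* share 499 of 1196 bases with the antisense gene *U62317.2* and 339 with *TYMP* on its own strand. A second *SCO2* entry of GENCODE 29 shares 857 of the 1196 bases on the same strand, and it is not listed among the genes counted here.

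Exact permutation tests over the 6 libraries gave two-sided p-values from 0.2 for *CCS* and *COMMD1* to 1 for *SLC31A1*, where 0.1 is the smallest that 3 libraries against 3 allow. The replicate number had a larger share of the sum of squares than the treatment in 8 of the 10 genes. The exceptions were *CCS*, with 56.3% of its sum of squares between treatments, and *COMMD1*, with 62.5%. The replicate number has more levels than the treatment, which favours it even for random variation, and the same count was not made over all genes. In *ATP7A* and *ATP7B* most of the sum of squares, 86.9% and 50.5%, went with neither. The median share between treatments was 4.38% over the copper genes and 10.2% over all genes, and the median share between replicate numbers was 69.1% and 62.8%.

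Ratios of TPM within a library were used to compare steps of the pathway without the scaling between libraries. *ATP7A* stood at 0.0795 of *SLC31A1* in DMSO and at 0.0820 with S767, as the antilog of the mean log2 ratios of -3.65 ± 0.12 and -3.61 ± 0.06 (SD, n = 3). *COMMD1* stood at 22.5 times *ATP7A* in DMSO and at 24.5 times with S767. *ATOX1* stood at 3.88 and 3.85 times *CCS*, and *SCO2* at 1.51 and 1.46 times *SCO1*. The DMSO and S767 libraries overlapped in each of these 4 ratios. On the log2 scale, *ATP7A* over *SLC31A1* differed by 0.045 between S767 and DMSO, and by -0.019 without DMSO replicate 3. *ATOX1* over *CCS* differed by -0.013, and by 0.019 without S767 replicate 1. *COMMD1* over *ATP7A* and *SCO2* over *SCO1* kept their direction without any one library.

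The genes whose log2 CPM most resembled one copper gene of each role were sought among 12785 genes with a mean CPM of at least 1. They are given as a description. The highest of so many correlations over 6 libraries can be this high by selection alone, and the libraries share their replicate differences. *SLC31A1* was most like *TMEM154* (Pearson r = 0.998) and *ADD3* (0.996). *ATP7A* was most like *GUCA1B* (0.989) and *CCDC18-AS1* (0.974), and *COMMD1* like *VPS72* (0.997) and *ATP5PO* (0.982). *ATOX1* was most like *CASP9* (0.987) and *POLDIP2* (0.984), and *SCO1* like *FAM86C1P* (0.991) and *HNRNPD* (0.990).

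The other copper genes were followed in 6 lists of 60 genes, 50 of them tested. At a P value under 0.05, 3 were higher and 1 was lower without the block, against 2.03% and 1.51% of all genes. With the block 12 were higher and 3 lower, against 9.38% and 7.39%. None passed an adjusted p of 0.05 in edgeR's quasi-likelihood test without the block, and 1 in each direction passed with it, 2 of 50 against 3.23% of all genes. Their median log2 fold change was 0.04.

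The partners of *COMMD1* in the COMMD family and the CCC complex, which recycles membrane proteins from endosomes, held the one gene that was higher at an adjusted p under 0.05 with the block. Of its 12 genes 1 was higher at a P value under 0.05 without the block and 5 were higher with it, against 2.03% and 9.38% of all genes. In either fit 0 of the 12 were lower, against 1.51% and 7.39% of all genes, and the median of the 12 was 0.07. *VPS35L*, a subunit of the retriever complex that works with CCC, had 40.0, 41.6 and 41.9 CPM in DMSO and 44.8, 48.1 and 47.2 CPM with S767. Every S767 library of *VPS35L* was above every DMSO library. Its difference was 0.18 (SE 0.04, adjusted p = 1.00) without the block and 0.18 (SE 0.03, adjusted p = 0.00385) with it, in edgeR's quasi-likelihood test. The most abundant gene of the list, *COMMD4*, differed by 0.08 (95% interval -0.04 to 0.19).

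The list of glutathione genes, whose product binds copper(I) in the cytosol, held the one gene that was lower at an adjusted p under 0.05 with the block. *GCLM*, the modifier subunit of the rate-limiting enzyme of glutathione synthesis, had 51.4, 41.6 and 35.6 CPM in DMSO and 37.5, 31.3 and 26.7 CPM with S767. Each S767 library was below the DMSO library of its number by a similar amount, although the groups overlapped. The difference of *GCLM* was -0.43 (SE 0.15, adjusted p = 1.00) without the block and -0.43 (SE 0.03, adjusted p = 1.0e-05) with it, in edgeR's quasi-likelihood test. At a P value under 0.05, 0 of the 5 genes of this list were higher and 1 was lower without the block, against 2.03% and 1.51% of all genes. With the block 2 were higher and 1 lower, against 9.38% and 7.39%. *GSR*, the reductase that regenerates glutathione and the most abundant of the list, had 145, 134 and 127 CPM in DMSO and 149, 146 and 133 CPM with S767. Each S767 library of *GSR* was above the DMSO library of its number, the opposite direction to *GCLM*, and its difference with the block was 0.08 (SE 0.02) at an adjusted p of 0.119 in edgeR's quasi-likelihood test.

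For the counts of the remaining lists, a P value under 0.05 was reached by 3.53% of all genes without the block and by 16.8% with it. Among 21 genes listed as copper enzymes 12 were tested and 1 was higher at a P value under 0.05 without the block. This was *F8*, coagulation factor VIII, which acts as a cofactor and is not itself an enzyme. Its difference was 0.17 (adjusted p = 0.103 with the block, edgeR's quasi-likelihood test). The mitochondrially encoded *MT-CO2*, the oxidase subunit served by SCO1 and SCO2, was the most abundant of the list and differed by 0.08 (SE 0.09). *SOD3*, *TYR*, *DBH*, *MOXD1*, *LOX*, *AOC1*, *CP*, *HEPH* and *HEPHL1* had too few counts to be tested. Of 10 mitochondrial delivery partners, 0 reached a P value under 0.05 without the block and 1 in each direction did with it, and the phosphate and copper carrier *SLC25A3* differed by 0.03. Of the 5 tested reductases and other uptake genes, 0 reached it without the block and 1 was higher with it, which was the metalloreductase *STEAP3* at 0.08 (adjusted p = 0.0879, edgeR's quasi-likelihood test with the block). Of the 6 copper-binding signalling genes, *ULK2*, a kinase that starts autophagy, was the one with a P value under 0.05 without the block, at 0.14 (adjusted p = 0.0584 with the block, edgeR's quasi-likelihood test). None of the 6 was lower without the block and 1 was lower with it. The most abundant by TPM, *MEMO1*, with a DMSO mean of 5.01 CPM, differed by -0.07 (SE 0.10). In TPM it went the other way, with means of 70.3 in DMSO and 74.7 with S767.

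**Figure D4:**
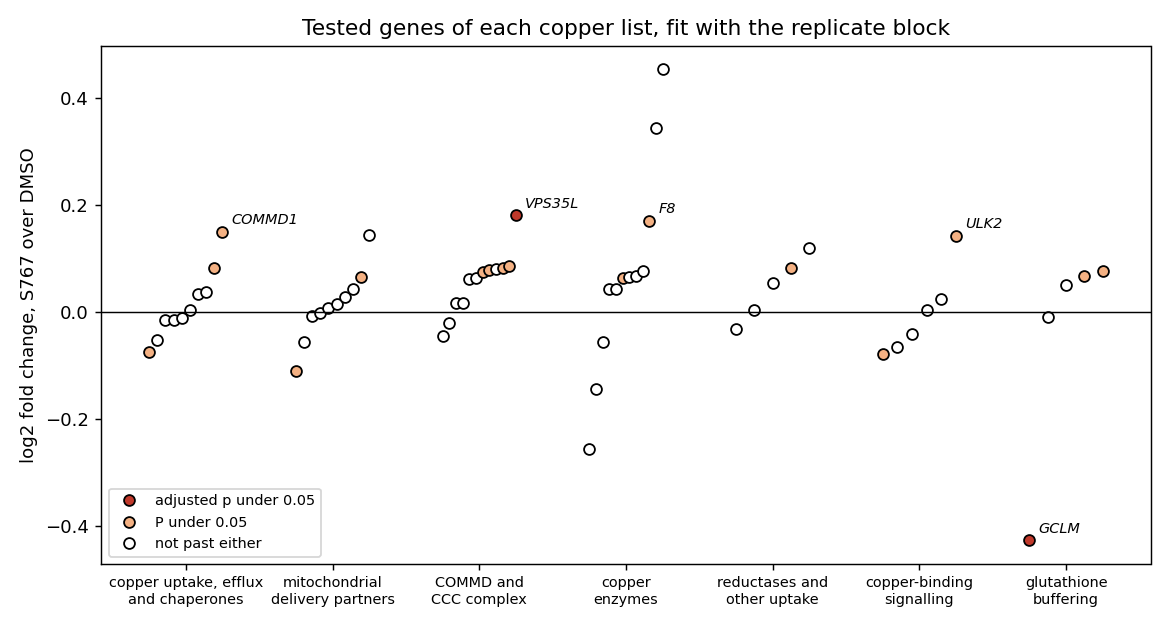
Log2 fold change of S767 over DMSO (vertical axis) in the fit with the replicate block for each tested gene of the 10 copper genes and of the 6 other copper lists, coloured by whether the gene passed an adjusted p or a P value of 0.05. *VPS35L* at 0.18 and *GCLM* at -0.43 are the 2 genes past the adjusted threshold, and the 10 copper genes lie between -0.07 and 0.15.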

How the data were processed

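Stranded polyA-selected mRNA libraries from OCI-AML5 cells were grouped by the treatment named in their labels. Per the submitters' processing notes, STAR 2.7.1a and RSEM 1.2.28 were run on GRCh38. The annotation release is not given in the sources used here. The counts the authors deposited are whole fragments per gene without normalization, for each strand and for both. The deposited RSEM tables hold expected counts, which are estimates, and TPM values, with lengths and posterior SDs.

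The reverse-strand counts, which fit the stranded kit, were tested with edgeR 4.0.16 under R 4.3.3, after TMM scaling and filterByExpr with a minimum count of 10. Lines naming no gene held 19.7% to 20.7% of fragments and were left out. Each standard error is the estimate over the root of its F statistic. Positions are from GENCODE 29, which holds 3 of the 10 identifiers in the same version and the others in another. The model was tested on simulated data.

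The replicate numbers paired the libraries. Over 6191 genes with mean log2 CPM above 5, deviations from group means had correlations of 0.78, 0.87 and 0.75 for equal numbers and negative ones for unequal numbers. Deviations within a group cancel, so the negative values follow on balance from the positive ones and add no support. This pairing was read from the data, and no source says what the numbers share. No library repeated another, the lowest chi-square per gene being 15.2.

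The 10 genes and the other lists were chosen with earlier results of these data known. From each other list were named up to 4 genes with the lowest P values under 0.05, or past an adjusted p of 0.05 with the block, and the most abundant gene by TPM.

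Alternatives were DESeq2 1.42.0, limma-voom (limma 3.58.1, the study's method), RLE factors, library size alone, 10 counts summed or no filter, the replicate block, expected counts rounded to whole numbers, counts without strand, limma on log2(TPM + 1) and log2(TPM + 0.1), and leaving out each library or pair. The block with limma-voom or expected counts, and leaving out libraries for the TPM ratios, were added after seeing the data.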

Additional observations from a re-analysis of the deposited data

How the results depend on the processing

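Counting error reached 2.86% of a copper gene's value in a library, at 1225 fragments, and for *ATP7B* it was about as large as the spread between S767 libraries (2.31%). The number of copper genes past an adjusted p of 0.05 was 0 in every setting except the replicate block without the first pair, where it was 1 (*COMMD1*). With 1 gene at a P value under 0.05 as reported, the count was 0 with 10 counts summed, no filter, library size alone, RLE factors or limma-voom, 2 on log2(TPM + 1), on log2(TPM + 0.1), with RSEM expected counts and the block, and with the block without the first pair, and 3 with the replicate block in edgeR or limma-voom. Leaving out one library gave 0 to 1. The count over all genes moved as well. It was 732 of 20725 as reported, 708 with limma-voom, 1062 on log2(TPM + 1) and 1077 on log2(TPM + 0.1). With the block it was 3475 of 20725 in edgeR, 3428 in limma-voom and 3322 of 18851 with RSEM expected counts. In edgeR with the block and without the first pair it was 4362 of 20629. *COMMD1* reached a P value under 0.05 in 11 of 22 settings, *SCO2* in 7, with S767 lower, and *CCS* in 3. *COMMD1* and *CCS* were above 0 in all 22, and the adjusted p of *COMMD1* ran from 0.000149 to 1.00. *COMMD1* lost its P value under 0.05 without either the second or the third library of DMSO or of S767.

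The median of the copper genes was 0.023 with counts without regard to strand and 0.0017 to 0.029 without one library. Of the 50 other copper genes, the 4 at a P value under 0.05 became 15 with the replicate block in edgeR, in limma-voom and with RSEM counts. They became 21 and 11 with the block without the first or the third pair. Over all genes the count rose too, from 732 of 20725 to 3475 with the block in edgeR. Without the first or the third pair it was 4362 of 20629 and 2791 of 20801. The other copper genes at that limit were 2 with no filter and 1 to 5 without one library (1 without DMSO replicate 1 or S767 replicate 3, 2 without DMSO replicate 2 or 3).

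The 8 genes other than *CCS* and *COMMD1*, with differences near 0, changed direction in at least 1 setting, never past an adjusted p of 0.05. Without one library *ATOX1* ran from -0.027 to 0.026, *ATP7A* from -0.068 to 0.023, *COX17* from -0.013 to 0.12, *SCO1* from -0.052 to 0.0091, *SLC31A1* from -0.038 to 0.039 and *SLC31A2* from -0.13 to 0.042. With the block and without the second pair, *ATOX1* was at -0.017, *ATP7A* at 0.052, *ATP7B* at -0.0022 and *SCO1* at 5.9e-05, and without the third pair *SLC31A1* was at 0.014. On log2(TPM + 1) and log2(TPM + 0.1) *ATP7A* was at 0.0035 and 0.0050 and *ATP7B* at -0.0075 and -0.0097. *SCO2* was at 0.14 with counts without regard to strand. The cause was not tested.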
